A study of Homo sapiens with 8 samples.

Results

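The 10 genes described here belong to transforming growth factor beta (TGF-beta) and bone morphogenetic protein (BMP) signalling. They were taken by gene symbol from a table of RPKM (reads per kilobase of transcript, scaled to the mapped reads of each library) that lists 21510 genes, and each of the 10 symbols occurs in it. The ligand genes are TGFB1, TGFB2, INHBA and BMP2, the receptor gene is TGFBR2, the inhibitory SMAD genes are SMAD6 and SMAD7, and the target genes are ID1, ID2 and ID3. Of the 10 genes, 7 reached 1 RPKM in 2 or more libraries and entered the test across 12567 genes. TGFB2, SMAD6 and ID2 stayed below that level and were not tested with it. BMP2 reached an RPKM of 1 in the Tet libraries alone, so the filter itself favoured a difference for that gene.

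Ligands of this family are secreted dimers that bring type II and type I receptors together on the cell surface. The receptors phosphorylate SMAD proteins, SMAD2 and SMAD3 in the TGF-beta and activin branch and SMAD1, SMAD5 and SMAD9 in the BMP branch, which join SMAD4 and act in the nucleus. SMAD6 and SMAD7 are induced by the pathway and restrain it, and the ID genes are among the best known direct targets of the BMP branch. In epidermis, TGF-beta is known as a brake on keratinocyte division and as an inducer of matrix and adhesion genes.

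The cells were N/TERT-2G, an immortalised line of human skin keratinocytes, grown in serum-free medium with added calcium chloride and harvested before confluence. All groups carried the same hairpin construct, switched on by tetracycline, which targets AREG. AREG encodes amphiregulin, a ligand of the EGF receptor. The groups were control (3 libraries, no tetracycline), Tet (3 libraries, tetracycline at 1 µg/ml) and Tet+EGF (2 libraries, the same tetracycline plus EGF at 20 ng/ml), each treated for 60 h. Tetracycline and hairpin were always given together, EGF was never given without them, and 1 line was used. The sample descriptions place replicate 1 of the control and Tet groups and both Tet+EGF libraries in batch 2, and the other 4 libraries in batch 1.

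The promoter sequences of 4 of the genes are shown because these genes stood apart in the data. ID3 rose most with tetracycline, ID1 is of the same family and did not pass the test, and INHBA and TGFB1 rose when EGF was added. Each sequence holds the 250 bases before the annotated start, 5′ to 3′ on the strand of the gene, from RefSeq on GRCh38.p14. The regions are chr1:23559502-23559751 (minus strand) for ID3, chr20:31605039-31605288 (plus strand) for ID1, chr7:41703091-41703340 (minus strand) for INHBA and chr19:41353923-41354172 (minus strand) for TGFB1. Capitals mark a match on either strand to the SMAD-binding core CAGAC, to the AP-1 site TGANTCA or to the EGR site GCGGGGGCG, and in TGFB1 the EGR match reads on the opposite strand.
ID3: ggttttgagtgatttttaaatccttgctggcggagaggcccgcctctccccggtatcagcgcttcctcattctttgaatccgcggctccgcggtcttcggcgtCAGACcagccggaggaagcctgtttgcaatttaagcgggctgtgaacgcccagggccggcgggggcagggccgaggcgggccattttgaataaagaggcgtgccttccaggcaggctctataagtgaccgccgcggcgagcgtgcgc
ID1: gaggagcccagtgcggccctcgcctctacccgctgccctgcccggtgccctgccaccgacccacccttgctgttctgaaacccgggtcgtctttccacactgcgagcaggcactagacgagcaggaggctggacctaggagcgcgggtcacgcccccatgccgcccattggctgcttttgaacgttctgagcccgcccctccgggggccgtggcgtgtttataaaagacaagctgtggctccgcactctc
INHBA: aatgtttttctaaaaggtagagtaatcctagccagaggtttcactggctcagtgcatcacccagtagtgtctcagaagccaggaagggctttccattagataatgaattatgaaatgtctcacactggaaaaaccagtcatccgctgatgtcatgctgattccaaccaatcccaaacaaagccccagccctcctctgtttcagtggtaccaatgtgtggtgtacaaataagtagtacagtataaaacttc
TGFB1: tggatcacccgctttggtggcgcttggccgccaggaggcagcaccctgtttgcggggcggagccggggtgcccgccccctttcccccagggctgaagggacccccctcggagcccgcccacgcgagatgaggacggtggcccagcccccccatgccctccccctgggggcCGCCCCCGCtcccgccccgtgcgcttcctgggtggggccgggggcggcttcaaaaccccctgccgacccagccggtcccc

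RefSeq promoters were found for 9 of the 10 genes, at 12 starts. The SMAD-binding core CAGAC occurred at 4 of the 12 starts, in ID3, TGFB2 and SMAD7, and in 38.0% of 35116 promoter windows of the same length. The BMP response element core GGCGCC was at 0 of the 12 starts and in 16.4% of windows. The AP-1 site TGANTCA was likewise at 0 of 12 and in 6.57% of windows, and the EGR site was at 1 of 12 and in 4.72% of windows. E-box letters CANNTG, which ID proteins' partners bind, were at 6 of 12 and in 61.8%. Both strands were searched, and a match is a run of letters and no measured binding.

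AREG, the gene targeted by the hairpin, was at 188.8 to 315.6 RPKM in control, 6.63 to 16.7 in Tet and 17.4 to 20.9 in Tet+EGF libraries. Keratinocyte identity was checked with 5 basal markers, whose summed RPKM was 18321 to 22330 in control, 25874 to 31673 in Tet and 15747 to 16074 in Tet+EGF libraries. The sum is carried by the most abundant keratins, and with tetracycline 2 of the 5 markers were called higher and 3 lower, with a median log2 fold change of -0.33. The read totals that scale the RPKM values, read from the value of a single read, came to 31900000 to 35400000 reads in batch 2 and 10100000 to 13700000 in batch 1, rounded. The totals of batch 1 lie well below the average per lane that the labels' protocol states, and the inferred totals were checked in no other way. Across genes, r was 0.990 to 0.996 between libraries that share group and batch, while pairs of 1 group split over both batches reached 0.953 to 0.962. Whether replicates came from separate cultures is not stated, and p-values then cover no more than the spread among these libraries. In bulk RNA, fewer cells of a type and less RNA per cell cannot be told apart.

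With tetracycline, ID3 rose by 2.32 on the log2 scale and BMP2, which the filter favoured, 2.15-fold. The other 5 tested genes did not pass. With EGF added to tetracycline, ID3 and BMP2 fell again, INHBA rose 7.74-fold, TGFB1 1.85-fold and TGFBR2 1.83-fold. The INHBA fold rests on the batch term. Without that term INHBA was at 1.37 on the log2 scale and not called (limma adjusted p = 0.405). Against control, the Tet+EGF libraries had more INHBA, TGFB1 and TGFBR2 mRNA, the INHBA call again being lost without the batch term. The 3 comparisons share libraries and are not independent of each other.

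**Figure D1:**
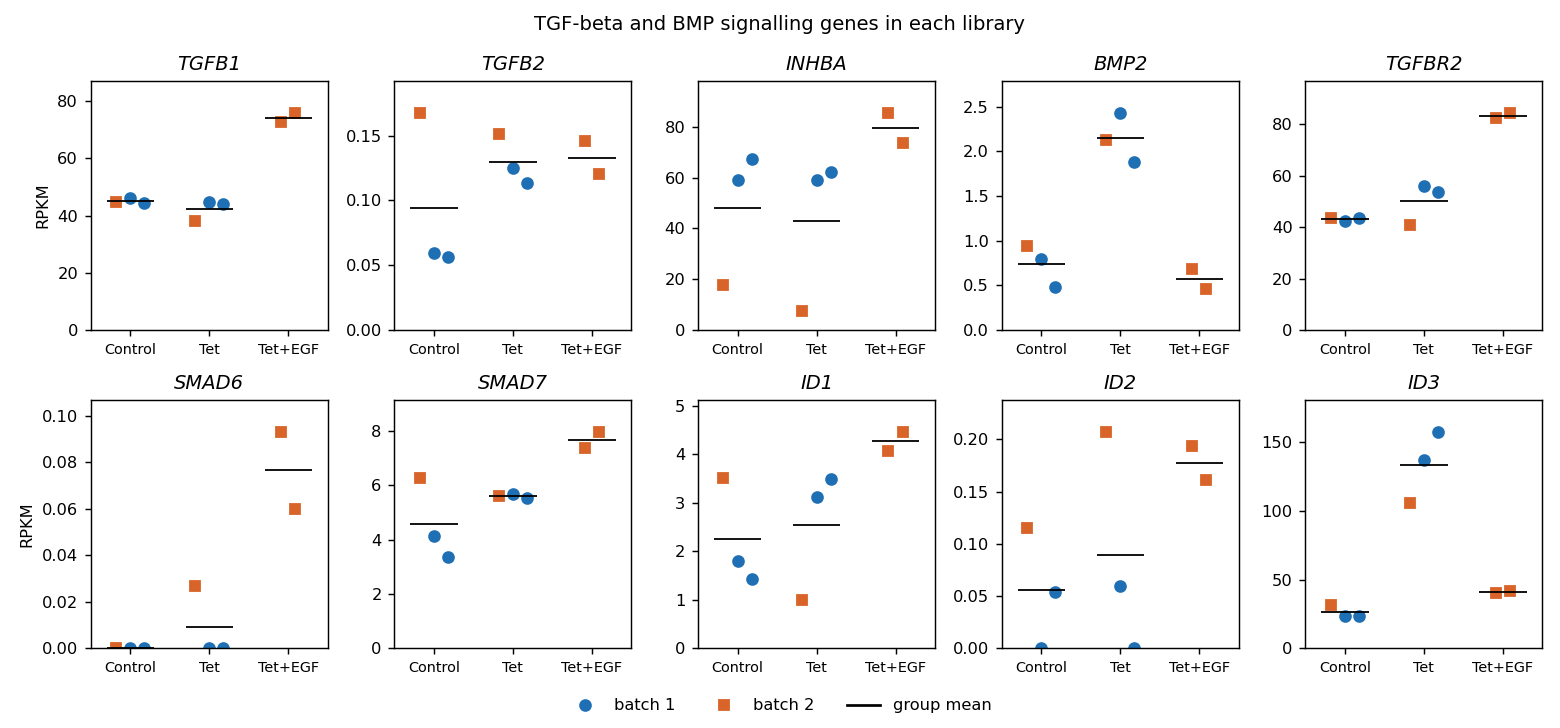
RPKM of the 10 genes in each library, in 3 groups, with a linear axis from 0 in each panel. Circles are batch 1, squares batch 2 and bars group means. ID3 lies between 105.8 and 157.4 RPKM in the Tet libraries, above all other libraries, and INHBA is low in the control and Tet squares at 17.6 and 7.41 RPKM.

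Per length, the levels fell into a high and a low set. In control libraries the mean RPKM was 48.0 for INHBA, 45.1 for TGFB1, 43.2 for TGFBR2 and 26.2 for ID3. Next came SMAD7 at 4.58, ID1 at 2.24 and BMP2 at 0.740, followed by TGFB2 at 0.0940, ID2 at 0.0563 and SMAD6, listed at 0. In this order INHBA and TGFB1 overlapped across libraries, as did SMAD7 and ID1, TGFB2 and ID2, and ID2 and SMAD6, and other neighbours did not. In the Tet libraries ID3 came first at 133.4 RPKM, above TGFBR2, INHBA and TGFB1, which overlapped. In the Tet+EGF libraries TGFBR2, INHBA and TGFB1 overlapped at the top, at 83.4, 79.4 and 74.2 RPKM, and ID3 came next at 40.9.

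TGFB1, the main TGF-beta ligand of many tissues, was high in the libraries with EGF. Its RPKM was 44.7, 46.1 and 44.5 in control, 38.0, 44.6 and 44.0 in Tet, and 72.7 and 75.7 in Tet+EGF libraries, replicates in order. Both Tet+EGF libraries lay above all others, and control and Tet overlapped. The log2 fold change between Tet+EGF and Tet was 0.89 (SE 0.089, limma adjusted p = 0.00107), and 0.96 within batch 2. The value against control was 0.79 (limma adjusted p = 0.00108) and 0.72 within batch 2. Tet against control gave -0.10 (limma adjusted p = 0.252), which joins -0.03 in batch 1 with -0.23 in batch 2. TGFB1 overlaps HNRNPUL1 (40.8 to 84.9 RPKM), CCDC97 (8.26 to 13.7) and TMEM91 (0.777 to 3.49) on the opposite strand in GENCODE, and the use of strand in counting was not given in the sources used here. The overlap is of whole gene spans, and overlap of exons was not measured. Reads in any shared exon could not be told apart without the strand.

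TGFB2, the second TGF-beta ligand gene of the list, was near the limit of detection. It was at 0.0560 to 0.167 RPKM in control, 0.113 to 0.151 in Tet and 0.120 to 0.146 in Tet+EGF libraries. The ranges overlapped, and no difference was detectable at this depth.

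INHBA encodes the subunit of activin A, a ligand that signals through SMAD2 and SMAD3 and is induced in wounded skin. Its RPKM was 17.6, 59.2 and 67.2 in control, 7.41, 58.9 and 62.2 in Tet, and 85.3 and 73.5 in Tet+EGF libraries. The Tet+EGF libraries were the highest of the 8, and the lowest were replicate 1 of control and of Tet, the only other libraries of batch 2. Between Tet+EGF and Tet the fitted log2 difference was 2.95 (SE 0.290, limma adjusted p = 0.000982), and 3.33 within batch 2. Against control it was 2.52 (limma adjusted p = 0.00123), and 2.14 within batch 2. The size rests on how batch is treated. Without a batch term these differences were 1.37 and 0.93 and did not pass (limma adjusted p = 0.405 and 0.495). Leaving out Tet replicate 1 gave 2.19 for the first, and leaving out control replicate 1 gave 3.27 for the second, and both passed (limma). In each case batch 2 then held no library of the group compared with Tet+EGF. Between Tet and control the difference was -0.44 (SE 0.219, limma adjusted p = 0.129), made of -0.06 in batch 1 and -1.20 in batch 2.

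BMP2, a ligand that signals through the BMP branch, rose with tetracycline from a low level. Its RPKM was 0.942, 0.791 and 0.486 in control, 2.13, 2.42 and 1.88 in Tet, and 0.680 and 0.457 in Tet+EGF libraries. All 3 Tet libraries lay above the other 5, and control and Tet+EGF overlapped. Only the Tet libraries reached 1 RPKM, so the filter favoured a difference from either other group. The rise was 1.11 on the log2 scale (SE 0.175, limma adjusted p = 0.00163), that is 1.22 in batch 1 and 0.87 in batch 2. With EGF it fell by 1.43 (SE 0.231, limma adjusted p = 0.00669), and by 1.31 within batch 2, and the call was lost without the Tet+EGF replicate 2 library, at -1.28 (limma adjusted p = 0.0558). Against control the Tet+EGF value was -0.32 (95% interval -0.87 to 0.23, limma adjusted p = 0.325), and -0.44 within batch 2. At these levels a value rests on about 24 to 272 reads, if the longest GENCODE transcript was counted.

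TGFBR2, the type II receptor that binds TGF-beta, was also high in the libraries with EGF. Its RPKM was 43.7, 42.3 and 43.6 in control, 40.8, 56.1 and 53.6 in Tet, and 82.6 and 84.2 in Tet+EGF libraries. Both Tet+EGF libraries were above all others. The difference between Tet+EGF and Tet was 0.87 (SE 0.130, limma adjusted p = 0.00461), and 1.02 within batch 2, and that against control was 1.07 (limma adjusted p = 0.00142), and 0.92 within batch 2. Between Tet and control the value of 0.20 did not pass (SE 0.098, limma adjusted p = 0.123). It was 0.35 in batch 1, where Tet lay above control, and -0.10 in batch 2, where it lay below. It passed at 0.35 without the control replicate 1 library (limma adjusted p = 0.000906) or Tet replicate 1 (limma adjusted p = 0.000909), and both are the batch 1 value. It also passed with quantile scaling at 0.28 and upper-quartile scaling at 0.26 (limma).

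SMAD7 binds activated type I receptors and blocks SMAD phosphorylation in both branches. Its RPKM was 6.26, 4.14 and 3.35 in control, 5.62, 5.69 and 5.53 in Tet, and 7.36 and 7.96 in Tet+EGF libraries. The Tet+EGF libraries were the highest, and control and Tet overlapped through control replicate 1. None of the 3 comparisons passed (limma). The values were 0.31 (limma adjusted p = 0.130) for Tet against control, 0.19 (limma adjusted p = 0.570) for Tet+EGF against Tet and 0.50 (limma adjusted p = 0.105) for Tet+EGF against control, where the unadjusted p was 0.0446. Without the control replicate 1 library they passed at 0.53, 0.41 and 0.95 (limma adjusted p = 0.00397, 0.0480 and 0.00488). Leaving out Tet replicate 1, the first passed at 0.53 and the second was -0.26 (limma adjusted p = 0.00397 and 0.261). Either way 0.53 is the value of batch 1 alone. The 0.95 was reached through the Tet libraries, while Tet+EGF against control within batch 2 was 0.27.

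SMAD6, the inhibitory SMAD with a preference for BMP receptors, was listed at 0 in all 3 control libraries. It was at 0.0270 RPKM in Tet replicate 1, at 0 in the other Tet libraries, and at 0.0930 and 0.0600 in the Tet+EGF libraries. These values stand for about 3, 10 and 6 reads, and no other library held one. The 5 libraries at 0 include 4 of batch 1, with 10100000 to 13700000 reads, and control replicate 1, whose 32000000 reads are close to the 31900000 of Tet+EGF replicate 2. SMAD6 was not tested with the filter on low values, the call it gets without that filter in Tet+EGF against control rests on these few reads, and no fold is given.

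ID3 gave the largest rise of the 7 tested genes with tetracycline. ID proteins lack a DNA-binding region and hold E proteins, which are basic helix-loop-helix transcription factors, away from DNA. The RPKM of ID3 was 31.6, 23.3 and 23.6 in control, 105.8, 136.9 and 157.4 in Tet, and 40.1 and 41.6 in Tet+EGF libraries. The 3 groups did not overlap, with control lowest, Tet highest and Tet+EGF between them. Between Tet and control the rise was 2.32 on the log2 scale (SE 0.174, limma adjusted p = 6.4e-05), that is 2.62 in batch 1 and 1.73 in batch 2. With EGF it fell by 1.66 (SE 0.230, limma adjusted p = 0.00354), by 1.36 within batch 2, and by 2.25 without the Tet replicate 1 library. The value against control was 0.66 (SE 0.230, 95% interval 0.12 to 1.21, limma adjusted p = 0.0653), with 0.37 within batch 2. That value was near the threshold. It passed at 1.26 without the control replicate 1 library (limma adjusted p = 0.000294), at 0.37 without the Tet replicate 1 library (limma adjusted p = 0.0125), and with each of 3 other scalings at 0.67 to 0.75 (limma adjusted p = 0.0318 to 0.0482).

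ID1, a close relative of ID3, did not pass in any of the 3 comparisons (limma). Its RPKM was 3.51, 1.80 and 1.42 in control, 0.997, 3.13 and 3.49 in Tet, and 4.07 and 4.46 in Tet+EGF libraries. Tet replicate 1 was the lowest of the 8 and the Tet+EGF libraries the highest, and control and Tet overlapped. The value for Tet against control was 0.10 (95% interval -0.90 to 1.09, limma adjusted p = 0.859), which joins 0.86 in batch 1 with -1.42 in batch 2. Between Tet+EGF and Tet it was 0.91 (limma adjusted p = 0.313), and 1.67 within batch 2, and against control 1.01 (limma adjusted p = 0.206), and 0.25 within batch 2. Batch 2 holds 1 Tet library, and these values turn on it. Without Tet replicate 1 the first comparison passed at 0.86 (limma adjusted p = 0.000761) and the second passed in the other direction, at -0.61 (limma adjusted p = 0.0447). Without control replicate 1 the 3 values were 0.86, 1.67 and 2.52, and each passed (limma adjusted p = 0.000867, 0.000311 and 0.00017). In both cases 0.86 is the value of batch 1 alone. The 2.52 joins 0.86 with 1.67 through the Tet libraries, since no control of batch 2 was left. Without any 1 of the 4 libraries of batch 1 the first value was -0.05 to -0.20 and did not pass (limma adjusted p = 0.745 to 0.944).

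ID2, the third member of the family on the list, was listed at 0.115, 0 and 0.0540 RPKM in control, 0.207, 0.0600 and 0 in Tet, and 0.194 and 0.161 in Tet+EGF libraries. The 4 values of batch 2 were the highest, at about 5 to 10 reads each, and those of batch 1 stood for 0 or 1 read. A difference between groups was not detectable at this depth.

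**Figure D2:**
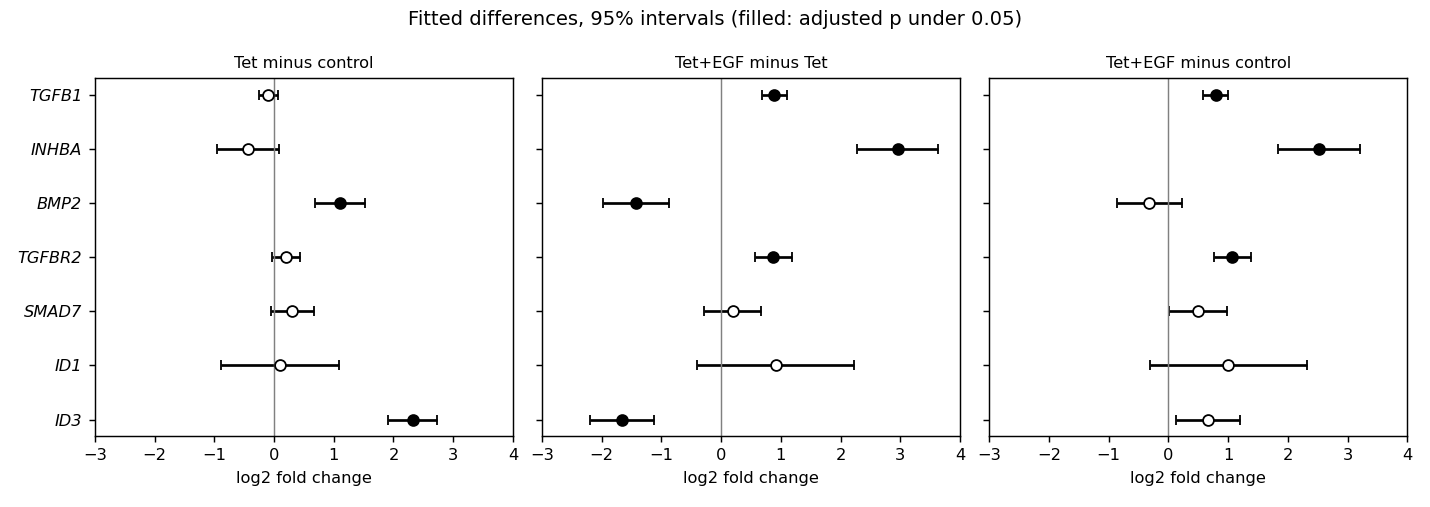
Fitted log2 fold changes of the 7 tested genes in 3 comparisons, on log2(RPKM + 0.5), with 95% intervals. Filled points passed at an adjusted p under 0.05 (limma). ID3 and BMP2 are right of 0 for Tet against control and left of 0 for Tet+EGF against Tet, where INHBA is farthest right at 2.95.

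Over the 7 tested genes, 2 were called between Tet and control, both higher, where 56.1% of all tested genes were called. Between Tet+EGF and Tet 5 were called, 3 higher and 2 lower, against 19% of all tested genes. BMP2 is in both counts, and the filter favoured its calls. Between Tet+EGF and control 3 were called, all higher, against 32.2%. Leaving out single libraries moved these counts. They were 5 for Tet against control without control replicate 1 or Tet replicate 1, where TGFBR2, SMAD7 and ID1 were added. Both omissions leave batch 1 alone for this comparison. The count for Tet+EGF against control was 6 without control replicate 1, where SMAD7, ID1 and ID3 were added and batch 2 held no control. Control and Tet libraries did not overlap for 2 of the 7 genes, BMP2 among them, against 47.8% of all tested genes. Tet+EGF and Tet did not overlap for 7 of 7, against 52.4%, and Tet+EGF and control for 6 of 7, against 60.1%.

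The difference with tetracycline was not the same in both batches. A batch by Tet interaction was called for 5 of the 7 tested genes, against 26.7% of all tested genes, and in each the value in batch 2 was below that in batch 1. ID3 rose in both batches, and the interaction was -0.89 (limma adjusted p = 0.00436). INHBA was at -0.06 in batch 1 and -1.20 in batch 2, with an interaction of -1.14 (limma adjusted p = 0.00411). TGFBR2, SMAD7 and ID1 were higher with tetracycline in batch 1 and lower in batch 2. The interaction was not called for TGFB1 at -0.20 (limma adjusted p = 0.145) or BMP2 at -0.36 (limma adjusted p = 0.473). In batch 2 these values rest on 1 control and 1 Tet library. AREG itself had a log2 difference of -3.53 in batch 1 and -5.47 in batch 2, and its part in the batch difference of the other genes was not tested.

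**Figure D3:**
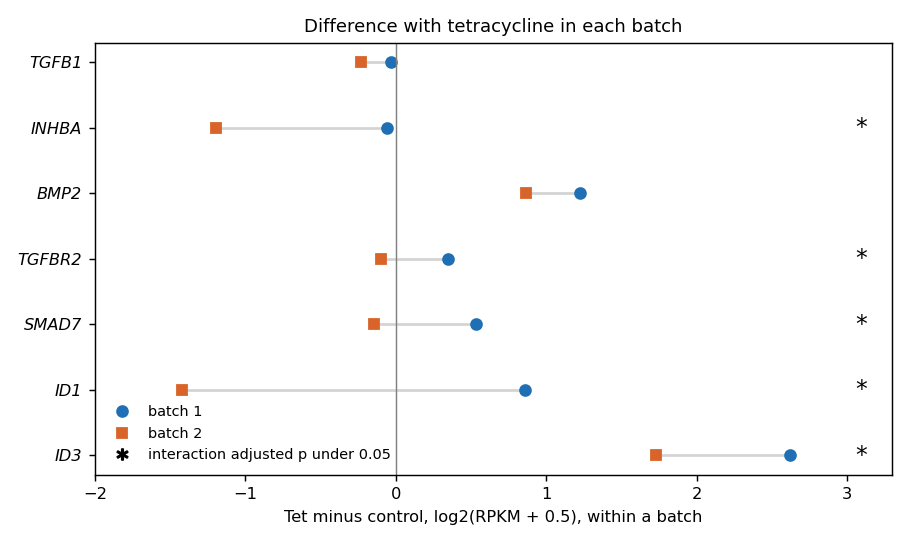
Log2 difference between Tet and control within each batch for the 7 tested genes. Circles are batch 1 (2 libraries a group), squares batch 2 (1 library a group), and stars mark an interaction with an adjusted p under 0.05 (limma). ID1 spans from -1.42 in batch 2 to 0.86 in batch 1.

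Markers of other cell types moved in the same comparisons. Of 8 fibroblast markers 2 passed the filter, DCN and COL1A1, and both rose with tetracycline and fell with EGF, as ID3 and BMP2 did. DCN reached 1 RPKM in the Tet libraries alone, so the filter favoured both its rise and its fall. Their list summed to 1.295 to 2.90 RPKM in control, 15.4 to 18.2 in Tet and 3.39 to 3.74 in Tet+EGF libraries, with PDGFRA at 0 in all Tet libraries. Of 5 leukocyte markers 2 passed the filter, CD68 and LCP1, and both rose with EGF, as TGFB1, TGFBR2 and INHBA did. Their list summed to 47.5 to 59.1, 29.2 to 41.6 and 108.7 to 109.3 RPKM, and PTPRC was at 0 in all control and Tet+EGF libraries. Of 6 endothelial markers 1 passed, KDR, which reached 1 RPKM only in libraries given tetracycline and was called higher there, and the list summed to 0.0650 to 0.291, 1.58 to 6.36 and 2.05 to 2.09 RPKM, with PECAM1 and TIE1 at 0 in all libraries. The melanocyte list summed to 0.960 to 2.27 RPKM over all libraries, with TYR at 0. The part of these markers in the changes of the pathway genes was not tested.

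Around the 10 genes, 119 further genes of the pathway were listed by role, and 70 of them passed the filter on low values. Between Tet and control 22 were higher and 23 lower, against 26.2% and 29.9% of all tested genes. Between Tet+EGF and Tet 19 were higher and 7 lower, against 9.82% and 9.15%, and between Tet+EGF and control 20 and 11, against 16% and 16.2%. The same shares of all tested genes apply to the counts of each role list below. The median over all tested genes was -0.04, 0.02 and -0.01 in the 3 comparisons. All calls but 1 had their direction in each batch with libraries of both groups, the exception being SKIL, a SMAD corepressor gene, in Tet against control. SKIL was singled out after its values were seen. Fitted direction and group mean RPKM were opposite in 1 of the 26 calls of Tet+EGF against Tet (FST) and in 3 of the 31 against control (FST, FSTL3 and THBS1).

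Genes that hold TGF-beta latent or release it moved in each comparison. Of 8 listed, 7 were tested, and with tetracycline 4 rose and 2 fell, against 26.2% and 29.9% of all tested genes. ITGB8, an integrin subunit that activates latent TGF-beta, rose by 2.01 on the log2 scale, and LTBP3, a latent TGF-beta binding protein, by 1.56, while THBS1, the gene for thrombospondin, fell by 1.72 (limma adjusted p = 2.8e-05, 5.59e-05 and 0.000119). With EGF 3 rose, where 9.82% of all tested genes did. These were THBS1 by 2.53, LTBP1 by 1.05 and LTBP2 by 0.70. Against control 6 rose, where 16% of all tested genes did. ITGB8 was at 2.01, LTBP2 at 1.10 and ITGB6, another such integrin subunit, at 1.39. THBS1 was among the 6, at 0.81 in the fit and 0.56 within batch 2, while its mean RPKM was 1998 in control and 1016 in Tet+EGF libraries and the libraries overlapped, so its direction comes from the batch term. The list medians were 0.40, 0.15 and 1.09. Without Tet replicate 1 the 3 that rose with EGF became 4, and 2 others fell. Fewer than 6 rose against control when control replicate 1 or either Tet+EGF library was left out. The call of LTBP2 with EGF was lost without Tet+EGF replicate 2 (limma adjusted p = 0.0594), and 1 in place of 2 fell with tetracycline without control replicate 3. Without the batch term THBS1 lost its calls with tetracycline and with EGF, at -1.72 and 0.98 (limma adjusted p = 0.129 and 0.539). ITGB6 then lost its call against control, at 0.88 (limma adjusted p = 0.0890). With the replicate block THBS1 was not called with EGF, at 1.38 (limma adjusted p = 0.222).

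Of 8 further TGF-beta and activin ligand genes 2 were tested, and INHA, the inhibin alpha subunit, rose by 0.92 with tetracycline. INHA reached 1 RPKM in 2 Tet libraries alone, so the filter favoured that rise. The other, GDF11, was at -0.26 (limma adjusted p = 0.0536), and the list had 1 lower call without control replicate 1 or Tet replicate 1. Of 16 further BMP and growth differentiation factor genes only BMP6 was tested, and it fell by 0.59 with tetracycline (limma adjusted p = 0.0168). Within batches its difference was -0.84 in batch 1 and -0.08 in batch 2, so the fall lay almost wholly in batch 1. The BMP6 call was lost with the replicate block, at -0.59 (limma adjusted p = 0.0553), and without any 1 of the 4 libraries of batch 1, at -0.49 to -0.54 (limma adjusted p = 0.0593 to 0.0637).

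Of 13 further receptor genes 8 were tested, and with tetracycline 1 rose and 3 fell, against 26.2% and 29.9% of all tested genes. TGFBR1, the type I partner of TGFBR2, rose by 0.76, ENG, a TGF-beta co-receptor, fell by 1.09 and ACVR1B, the type I activin receptor, fell by 0.69. With EGF ENG was at 0.52 and TGFBR1 at -0.46, both called, but ENG was not called when either Tet+EGF library was left out (limma adjusted p = 0.0900 and 0.118). TGFBR1 lost its call without control replicate 2 or 3, Tet replicate 1 or either Tet+EGF library (limma adjusted p = 0.0532 to 0.171). Against control ACVR1B was at -0.89 and ENG at -0.57, and the second was lost without Tet+EGF replicate 1 (limma adjusted p = 0.0624). Without the batch term ACVR1B lost both calls, at -0.69 with tetracycline and -0.43 against control (limma adjusted p = 0.0637 and 0.303), and TGFBR1 its call with EGF at -0.39 (limma adjusted p = 0.0798). With the replicate block ACVR1B was at -0.56 against control (limma adjusted p = 0.127). Without the control replicate 1 or Tet replicate 1 library 3 receptors rose with tetracycline.

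Of the 6 receptor-regulated and common SMADs 5 were tested, and with tetracycline SMAD2 fell by 0.68, SMAD4 by 0.40 and SMAD3 rose by 0.23. That is 60% called, against 56.1% of all tested genes. With the replicate block SMAD4 and SMAD3 were not called (limma adjusted p = 0.102 and 0.152), and SMAD3 also lost its call without control replicate 2 or 3, Tet replicate 3 or either Tet+EGF library (limma adjusted p = 0.0593 to 0.0729). With EGF 0 of the 5 passed (limma), with 1 at an unadjusted p under 0.05, and against control SMAD2 was at -0.56, a call lost without control replicate 1 or either Tet+EGF library (limma adjusted p = 0.0543 to 0.0889). In the fit with no batch term SMAD4 and SMAD3 with tetracycline and SMAD2 against control, at -0.35, were not called (limma adjusted p = 0.190, 0.165 and 0.179).

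Of 17 genes listed as extracellular antagonists 4 were tested. NBL1, a BMP antagonist, fell by 0.65 with tetracycline and was at -0.64 in Tet+EGF against control. FSTL3, which binds activin, rose by 0.41 with tetracycline and was at 0.35 in Tet+EGF against control, a call lost without control replicate 2 or 3, Tet replicate 2 or either Tet+EGF library (limma adjusted p = 0.0612 to 0.207). FST, the gene for the activin antagonist follistatin, was called with EGF at 0.64 against Tet and 0.82 against control. The first was lost without either Tet+EGF library (limma adjusted p = 0.0847 and 0.0646), and both turned to -1.04 and -0.86 without the batch term. FSTL3 without the batch term was not called in either comparison (limma adjusted p = 0.158 and 0.965). The mean RPKM of FST was 92.7 in control, 112.5 in Tet and 40.3 in Tet+EGF libraries.

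Of 19 intracellular regulators 18 were tested, and with tetracycline 4 rose and 7 fell, against 26.2% and 29.9% of all tested genes. SMURF2, a ubiquitin ligase of receptors and SMADs, fell by 2.10, and ZFYVE9, which presents SMADs to the receptor, by 1.12, while NEDD4L, another ubiquitin ligase, rose by 0.64 (limma adjusted p = 1.84e-05, 0.000107 and 0.00054). With EGF 4 rose and 1 fell, against 9.82% and 9.15% of all tested genes. SMURF2 was at 1.26, FKBP1A, a type I receptor binding protein, at 0.62 and PMEPA1, a feedback inhibitor of SMAD phosphorylation, at 1.39. Without Tet+EGF replicate 1 the 4 became 1, and without control replicate 1 they became 8. The calls of PMEPA1 and FKBP1A were among those lost (limma adjusted p = 0.0656 and 0.0526), that of PMEPA1 also without Tet+EGF replicate 2 (limma adjusted p = 0.0713). Without the batch term the values with EGF were 0.43 for PMEPA1, 0.47 for FKBP1A and 0.88 for SMURF2, and none passed (limma adjusted p = 0.695, 0.0621 and 0.0743). With the replicate block PMEPA1 was at 0.72 and FKBP1A at 0.51 (limma adjusted p = 0.316 and 0.0761). Against control 2 rose and 4 fell, with FKBP1A at 0.98, ZFYVE9 at -1.06 and SMURF2 at -0.84. The 2 became 7 without control replicate 1 and 1 without Tet replicate 2 or either Tet+EGF library, and the 4 became 2 without either Tet+EGF library.

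Among known TGF-beta target genes, 10 of 16 tested rose with EGF, against 9.82% of all tested genes. The list holds 18 genes. With tetracycline 5 rose and 5 fell, against 26.2% and 29.9% of all tested genes, with a median of 0.15. FN1, the fibronectin gene, fell by 1.79, and CTGF, a matrix-associated growth factor gene, by 1.41 (limma adjusted p = 7.29e-06 and 0.00046). With EGF 10 rose and 2 fell, with a median of 0.87 overall and 1.03 within batch 2. FN1 rose by 1.95 and CTGF by 3.01 (limma adjusted p = 6.17e-05 and 0.000346). Against control 10 rose and 1 fell, with a median of 0.92, and BHLHE40, a transcription factor gene, was at 1.20 and SPHK1, which encodes sphingosine kinase, at 2.63. The number that rose was 8 to 10 against Tet and 8 to 12 against control with single libraries left out. The 2 that fell against Tet became 0 without either Tet+EGF library, and the 1 that fell against control became 0 without control replicate 2 or 3 or either Tet+EGF library. Without the batch term CTGF was not called in either of the first comparisons, at -1.41 and 1.85 (limma adjusted p = 0.105 and 0.143), and against control BHLHE40 was at 0.74 and SPHK1 at 1.70, also not called (limma adjusted p = 0.0924 and 0.0664).

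Among known BMP target genes other than the ID genes, 4 of 6 tested were called higher with tetracycline, against 26.2% of all tested genes called higher. One of the 4, DLX5, reached 1 RPKM in the Tet libraries alone, so the filter favoured its call and the count. The list holds 11 genes, and with tetracycline 0 of them fell (limma), with 0 lower at an unadjusted p under 0.05 as well. The list median of 0.76 joins 1.02 in batch 1 and 0.41 in batch 2. DLX5 and DLX3, homeobox genes, were at 1.16 and 0.69, and HES1, a repressor better known as a Notch target, at 0.83. For tetracycline, HES1 and DLX3 were not called with the replicate block (limma adjusted p = 0.0628 and 0.128), nor HES1 without the batch term (limma adjusted p = 0.148). With EGF DLX3 fell by 1.70 and DLX5 by 1.62, and the list median was -0.72. The filter favoured this fall of DLX5 as well, and so the count of 2 called lower. Without Tet replicate 1 the 2 became 5, and without control replicate 1, 1 other rose. Against control DLX3 was at -1.01, lost without either Tet+EGF library (limma adjusted p = 0.0516 and 0.0598), with 3 fallers without Tet replicate 1 and 3 risers without control replicate 1. Without the batch term DLX3 was not called in any comparison, at 0.69, -0.75 and -0.06 (limma adjusted p = 0.322, 0.454 and 0.945). The replicate block also lost its calls with EGF, at -0.97, and against control, at -0.29 (limma adjusted p = 0.189 and 0.613).

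The genes of the 3 E proteins that ID proteins hold were called with tetracycline, a comparison in which 56.1% of all tested genes were called. TCF4 rose by 0.61, TCF12 fell by 0.91 and TCF3 fell by 0.47 (limma adjusted p = 0.00163, 0.0041 and 0.00505), so they did not share a direction. With EGF TCF4 was at -0.62, lost without either Tet+EGF library (limma adjusted p = 0.107 and 0.133). Against control TCF12 was at -0.84, lost without control replicate 1, at -0.22, or either Tet+EGF library (limma adjusted p = 0.115 to 0.138). It was -0.29 without the batch term and -0.43 with the replicate block (limma adjusted p = 0.594 and 0.345). TCF12 was also not called with tetracycline when batch was left out, at -0.91, nor TCF4 with EGF, at -0.55 (limma adjusted p = 0.0611 and 0.0508).

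**Figure D4:**
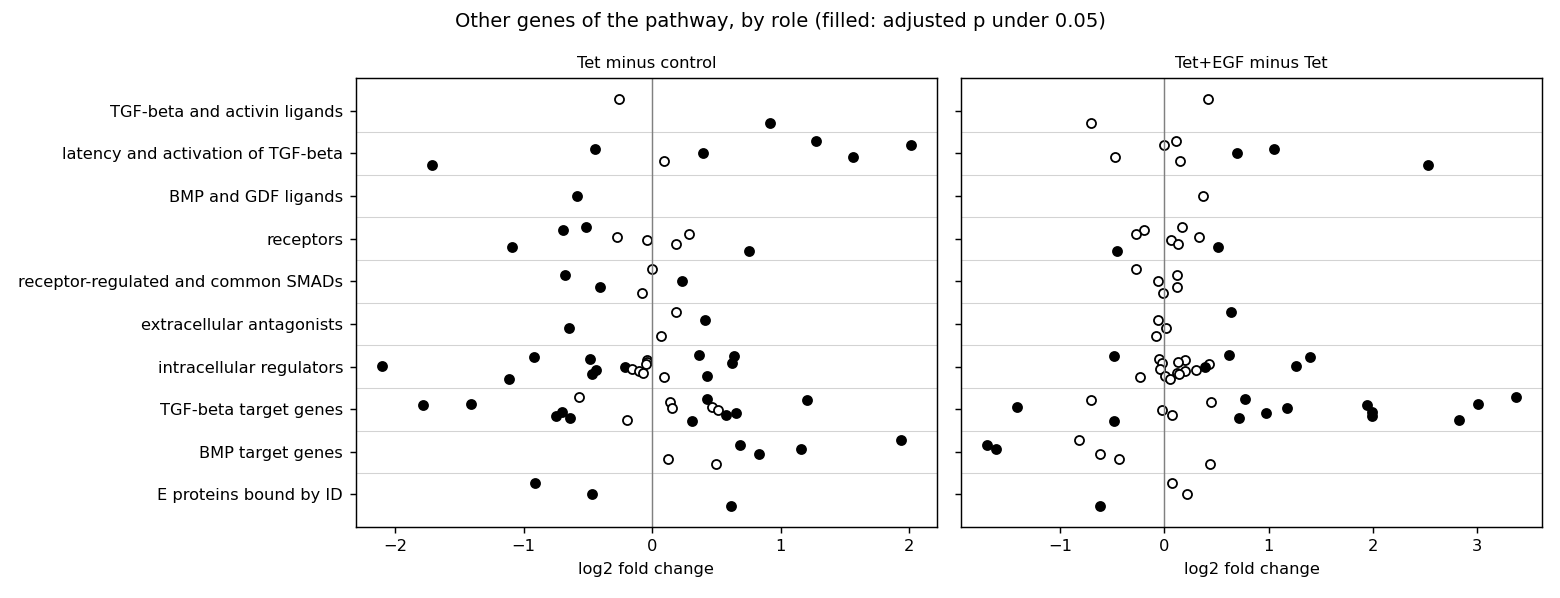
Log2 fold changes of the 70 tested pathway genes by role, for Tet against control and Tet+EGF against Tet, on log2(RPKM + 0.5). Each point is a gene, spread vertically within its role, and filled points passed at an adjusted p under 0.05 (limma). Among TGF-beta target genes 10 filled points lie right of 0 with EGF, and among BMP target genes 4 lie right of 0 with tetracycline.

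The genes whose profile over the 8 libraries was most like each of the 7 tested genes were found by Pearson's r of log2(RPKM + 0.5) among 8540 genes averaging 5 RPKM or more. For ID3 they were JUP at 0.995 and OTUD1 at 0.993, for INHBA DUSP5 at 0.982 and NECAP2 at 0.979, and for TGFB1 RNASE7 at 0.991 and CHMP4B at 0.990. TGFBR2 was most like SPRYD3 at 0.994 and ITGA5 at 0.987, BMP2 was close to CRYAB at 0.974, and SMAD7 most like RNF19B at 0.986 and PTK6 at 0.979. ID1 had the loosest matches, MAP2K7 at 0.948 and YIF1A at 0.937. These values describe 8 libraries that share groups and batches, and the best of so many genes is high by selection.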

How the data were processed

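Poly(A) RNA of 8 libraries was read on an Illumina sequencer, 1 sample a lane, per the labels. The authors aligned reads with TopHat 1.3.3, per the submitters' processing notes, and deposited RPKM values. Counting tool, genome build and annotation were not given in the sources used here. RPKM hold no counts, so limma 3.58.1 (R 4.3.3, eBayes with a trend) was run on log2(RPKM + 0.5) of the 12567 of 21510 genes that reached 1 RPKM in 2 or more libraries, with group and batch as terms and Benjamini-Hochberg adjustment over all of them (threshold 0.05, two-sided). The pseudocount of 0.5 understates changes of low genes. The fit was checked on simulated data. Library depth was read from the value of a single read in genes with 1 GENCODE transcript, and GENCODE lengths may differ from those the authors used.

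The 10 genes, the role lists and the marker lists were chosen with earlier results of these data known. Genes of a role list were named as up to 3 with the smallest p among those called per comparison, plus every gene of a list with at most 3 tested, and the 2 most correlated genes per member. Some genes that this rule names are not reported here. DCN, COL1A1, CD68, LCP1 and KDR were named after their values were seen. The replicate block was run because same-numbered control and Tet libraries deviated together from their group means (r = 0.476, 0.314 and 0.338). Differently numbered pairs within batch 1 were at 0.272 and 0.334, close to the same-numbered pairs there. So few pairs, measured from group means that span both batches, cannot show whether libraries pair by number beyond batch. The alternatives were other pseudocounts, filters, scalings and batch terms, the replicate block, single batches and single libraries left out. Scripts used Python 3.11.15, numpy 2.4.6, pandas 2.3.3 and matplotlib 3.10.9.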

Additional observations from a re-analysis of the deposited data

Results flagged for a closer look

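The effect of tetracycline differed between the batches in 5 of the 7 tested genes, against 26.7% of all tested genes, by a test of the interaction itself. The interaction, batch 2 minus batch 1 on the log2 scale, was -0.89 for ID3 (limma adjusted p = 0.00436), -0.45 for TGFBR2 (0.0134), -1.14 for INHBA (0.00411), -0.68 for SMAD7 (0.0368) and -2.28 for ID1 (0.00122). Batch 2 holds 1 control and 1 Tet library, so batch and these libraries cannot be told apart. With upper-quartile scaling 3 of the 5, ID1, ID3 and INHBA, were called. The interaction of SMAD7 was called with all libraries and without control replicate 2, and was lost without any other library that could be left out.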

How the results depend on the processing

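The number of members called between Tet and control was 2, and it was 1 among genes averaging 5 RPKM or more, where BMP2 and ID1 were not tested, and 5 in batch 1 alone. The interaction gave 5, and 3 with upper-quartile scaling. With single libraries left out the counts ranged from 2 to 5 for Tet against control, 4 to 7 for Tet+EGF against Tet, 3 to 6 for Tet+EGF against control and 4 to 5 for the interaction, which has no value without control replicate 1 or Tet replicate 1. With no filter on low values 4 were called between Tet+EGF and control, SMAD6 being added. With only the 2 groups compared, SMAD7 at 0.41 and ID1 at 1.67 passed between Tet+EGF and Tet, and ID3 at 0.37 against control. ID3 also passed against control without the batch term, at 0.65. With the replicate block in place of batch, INHBA was not called against Tet at 1.80 or against control at 1.36 (limma adjusted p = 0.148 and 0.164), 2 members were called between Tet and control, ID3 and BMP2, 4 between Tet+EGF and Tet and 2 between Tet+EGF and control. Between deviations of Tet+EGF and same-numbered control or Tet libraries r was -0.310 to -0.137. The deviations of the 2 Tet+EGF libraries mirror each other, so these values cannot show whether same-numbered libraries pair. The block leaves out batch. Directions turned for FST against Tet at -1.04 without the batch term and -0.61 with the block, against control at -0.86 and -0.42, and for FSTL3 against control at -0.016 without the batch term. TCF4 was at -0.0045 against control and 0.062 without the batch term, 0.022 with the block, 0.0024 and 0.028 with median-ratio and upper-quartile scaling, and 0.028 with only 2 groups. BMP6 against control was 0.035 with only 2 groups. Leaving out single libraries turned ID1 between Tet and control (-0.20 to 0.86), and between Tet+EGF and Tet, without Tet replicate 1, SMAD7 (-0.26), ID1 (-0.61), AREG (-0.49, and 1.46 without control replicate 1) and TCF12 (-0.54, and 0.38 without control replicate 1), and against control BMP6 (-0.73 to 0.035) and TCF4 (-0.069 to 0.028). The causes were not tested.

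The RPKM hold no read counts, the Tet+EGF group has 2 libraries in 1 batch, and batch 2 has 1 control and 1 Tet library. A value for Tet+EGF from all libraries assumes the same batch difference in each group, and the interaction was called for 5 members. Low genes, BMP2 and ID1 included, rest on few reads in batch 1. Tetracycline without a hairpin and EGF without tetracycline were not analysed here.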
